A study of Mus musculus with 6 samples.

Results

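The sperm tail beats by means of an axoneme, a bundle of microtubule doublets that carries dynein motors, and the genes described here encode its dynein heavy, intermediate and light chains, the factors that assemble them, radial spoke proteins, the nexin-dynein regulatory complex with the Ccdc39 and Ccdc40 ruler, tektins and the proteins named as cilia and flagella associated (Cfap). Members were chosen by symbol, after transcripts had been matched to GENCODE release M21 and with earlier results of these data known. They were the Dnah, Dnai, Dnal, Dnaaf, Rsph, Cfap, Tekt and Drc genes together with Ccdc39, Ccdc40 and Gas8. The deposited table listed 70 of the 75 annotated members, in 150 of its 27120 transcripts and among 14000 genes in all. Cfap97d2, Dnah11, Dnah2os, Dnah5 and Rsph4a were not analysed here. All 70 listed members passed the filter on low values. Polyadenylated testis RNA of 6 wild-type C57BL/6N males had been sequenced, 3 in each group, and the males were killed at 15 weeks of age. H+H+Cd males (HFD2D in the study) were F2 offspring after 2 paternal generations on a high-fat diet (HFD), and H+Cd males (HFD1D) were F1 offspring after 1 such generation. The diet was given to the fathers from week 5 to week 15 of life, and both groups then received cadmium chloride (CdCl2), a testicular toxicant, in drinking water for 10 weeks. The breeding generation differed together with the diet of the fathers, and the contributions of these cannot be told apart, and groups without cadmium or on normal chow were not analysed here. Levels are FPKM, a measure of abundance per kilobase of transcript that is adjusted for library size, and the value of a gene is the sum over its listed transcripts.

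In an axoneme the outer arm dyneins set the beat frequency and the inner arm dyneins shape the bend, while the regulatory complex and the radial spokes pass signals between the central pair and the motors. Dynein arms are built in the cytoplasm by dedicated assembly factors before they enter the tail, and tektins form filaments inside the doublets. In the testis nearly all of this RNA belongs to late spermatocytes and spermatids, which express it ahead of tail formation. In whole testis RNA, fewer cells of a type and less RNA per cell cannot be told apart.

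Transcripts of 2 axoneme genes, Dnal1 and Ccdc40, differed between the groups, while no gene total passed the test. None of the 70 genes passed limma's adjusted threshold of 0.05, at which 0.00726% of all 13769 genes tested did. Means were higher in H+H+Cd testes for 43 members (61.4%, beside 50.2% of all genes), with a median log2 difference of 0.053, or 0.027 without H+Cd replicate 1. At an unadjusted p below 0.05 there were 12 members, 17.1% of the set, beside 11.9% of all genes. Of these, 9 had higher means in H+H+Cd testes (Cfap100, Cfap74, Dnah10, Dnah17, Dnaic1, Dnal1, Tekt1, Tekt2 and Tekt4, 12.9% beside 5.31% of all genes) and 3 had lower ones (Cfap300, Dnah12 and Dnah7a, 4.29% beside 6.59%). Among the 148 member transcripts tested, Dnal1-201 and Ccdc40-201 rose and Dnal1-202 fell by limma's adjusted test, 2.03% of them beside 0.13% of all 25322 transcripts (0.0869% higher and 0.0434% lower). Left-out libraries lowered this count, to 1 without H+H+Cd replicate 1, H+H+Cd replicate 3 or H+Cd replicate 3 and to 0 without H+H+Cd replicate 2 or H+Cd replicate 2. Dnal1 and Ccdc40 had been singled out for their isoforms with earlier results of these data known. The share of 2.03% is therefore no measure of axoneme genes as a set. The thresholds of the study, a fold change above 1.2 with an unadjusted F-test p below 0.05, were applied to log2(FPKM + 1). They called Dnal1 and Cfap100, 2.86% of members beside 4.82% of genes. That count was 1 without H+H+Cd replicate 1, H+Cd replicate 2 or H+Cd replicate 3, 6 without H+Cd replicate 1 and 7 without H+H+Cd replicate 3. With all libraries and the fold taken on mean FPKM, the count was 3.

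Libraries were alike in total, with summed FPKM between 382815 and 397147, and the read depth is unknown because the table holds no counts. Members summed to 5149.6, 5177.6 and 4691.6 FPKM in the H+H+Cd libraries and to 4803.9, 4717.6 and 4912.7 FPKM in the H+Cd libraries, so the groups overlapped. Of 10 spermatocyte markers, all were detected, and their sum was 819 to 850.5 FPKM in H+H+Cd testes against 883.5 to 933.1 FPKM in H+Cd testes, without overlap. Sums of round spermatid markers (845 to 904.3 against 810.2 to 871.6 FPKM) and of elongating spermatid markers (19293 to 20325.5 against 17020.7 to 22775 FPKM) did overlap. Of 12 markers of multiciliated epithelium, 8 were in the table, Foxj1 among them. They summed to 349.6 to 370.7 FPKM against 305.1 to 321.8 FPKM, without overlap, and 6 of the 7 tested had higher means in H+H+Cd testes. Most of the gap lay in Fam183b, with 181, 174 and 207 FPKM in H+H+Cd testes against 155, 146 and 143 FPKM in H+Cd testes. Deup1, the next most abundant, overlapped, and Cdhr4 had a lower mean in H+H+Cd testes. Scgb1a1, Sec14l3 and Ccno each stayed at or below 1.11 FPKM. The epididymal gene Crisp1 read 86.1 FPKM in H+H+Cd replicate 1 and at most 0.293 FPKM elsewhere. Macrophage markers summed to 31.5 to 41.1 FPKM in H+H+Cd testes against 28.2 to 33.3 FPKM in H+Cd testes, with 6 of 7 higher on average in H+H+Cd testes and a median log2 difference of 0.36. Leydig cell markers summed to 434.3 to 521 FPKM in H+H+Cd testes against 534.2, 240.4 and 507.6 FPKM in H+Cd testes, so H+Cd replicate 2 stood apart. Most of that gap lay in Insl3, at 45.5 FPKM there against 263 and 276 FPKM in H+Cd replicates 1 and 3. Cyp11a1 and Lhcgr were also lowest there, while Cyp17a1, at 116 FPKM, lay within the H+H+Cd range. Sertoli cell markers summed to 321.7 to 358.4 FPKM in H+H+Cd testes against 352 to 360.4 FPKM in H+Cd testes, with overlap, and 4 of 9 had an unadjusted limma p below 0.05. Cldn11, a Sertoli cell junction protein, had 29.2, 29.7 and 29.9 FPKM in H+H+Cd testes against 33.8, 34.1 and 35.8 FPKM in H+Cd testes. No marker gene passed the adjusted test, and the part of these differences in the results below was not tested.

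**Figure D1:**
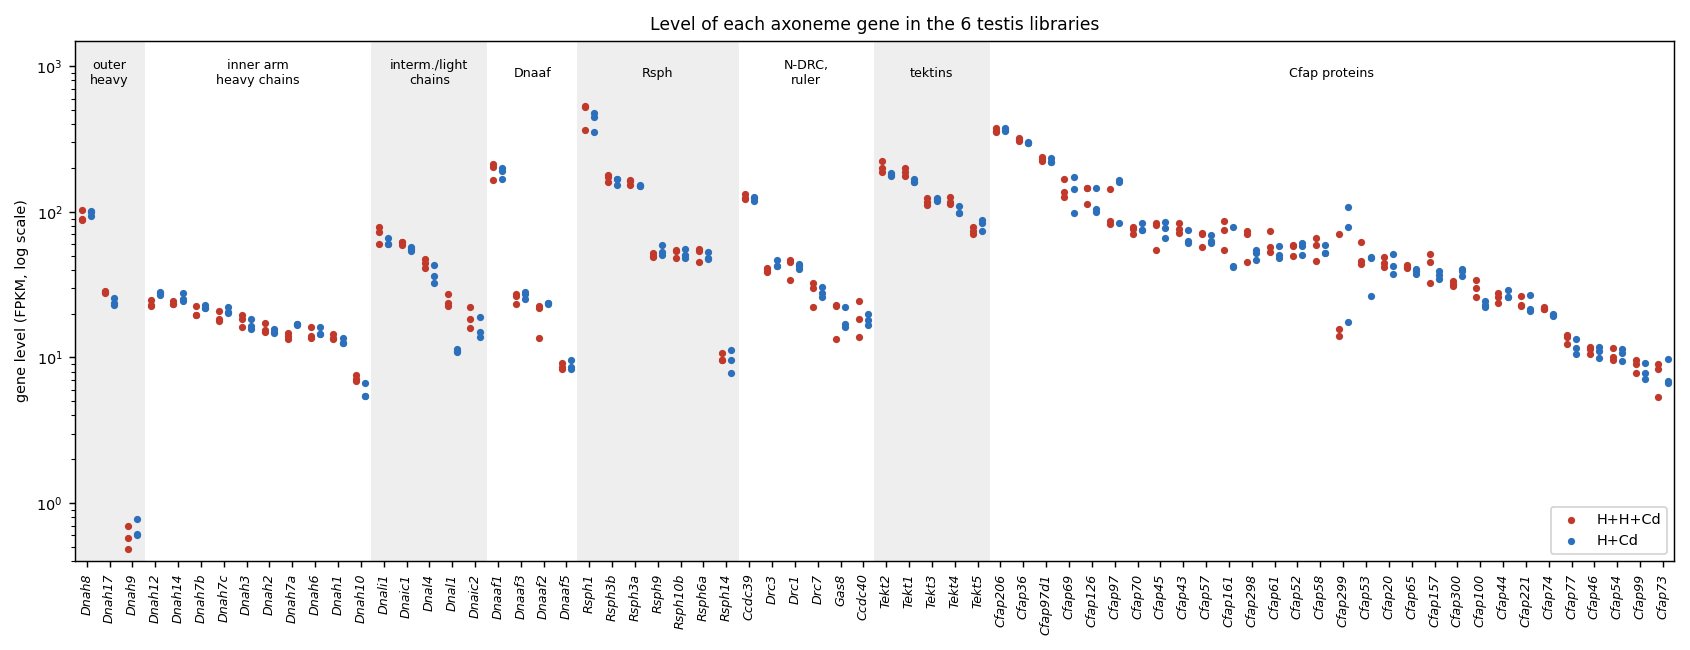
Level of each of the 70 axoneme genes in FPKM (log scale) in the 3 H+H+Cd libraries (red) and the 3 H+Cd libraries (blue), 1 point a library, grouped by role and ordered by mean. Rsph1 is the most abundant member, Dnah9 alone lies below 1 FPKM, and the points of Dnal1 separate by group while those of Cfap299 spread widely in both.

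Axoneme genes were abundant. Their median level was 42.1 FPKM, beside 6.21 FPKM over all genes, 22 of them lay in the top 10% of genes, and 69 had a mean of at least 1 FPKM. Rsph1, a radial spoke head protein, led with 530, 526 and 365 FPKM in H+H+Cd testes and 355, 448 and 482 FPKM in H+Cd testes. Dnah9, an outer arm heavy chain best known from epithelial cilia, was the lowest, at 0.484 to 0.697 FPKM against 0.603 to 0.776 FPKM. FPKM sets levels per length, so this order compares genes on a common scale. The spread between mice of 1 group was small, and the larger of the 2 within-group coefficients of variation had a median of 9.58% over members. It exceeded 30% in Cfap299, Cfap161, Cfap97 and Cfap53 alone.

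The members did not follow 1 order of libraries. H+H+Cd replicate 3 had the lowest value for 21 of the 70 genes, 20 of them outside the heavy chains, whereas it had the highest value for 4 of the 13 heavy chains and the lowest for 1. H+Cd replicate 1 was highest for 6 heavy chains. H+H+Cd replicate 2 was highest for 21 of the 70 genes, all of them outside the heavy chains. Over all genes, H+H+Cd replicate 3 was lowest for 21.9%, H+H+Cd replicate 2 highest for 14.3% and H+Cd replicate 1 highest for 17.1%.

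Outer arm heavy chains are the motor subunits that drive the beat. Dnah8, a chain of the sperm tail, was the most abundant heavy chain, at 88.7, 88.4 and 103 FPKM in H+H+Cd testes and 102, 99.8 and 93.6 FPKM in H+Cd testes. Its groups overlapped (log2 difference of FPKM + 1, -0.08, 95% CI -0.27 to 0.11). Dnah17, the other outer arm chain typical of sperm, had 28.7, 27.8 and 28.1 FPKM in H+H+Cd testes against 25.8, 23.6 and 23.1 FPKM in H+Cd testes. Every H+H+Cd value lay above every H+Cd value, with a log2 difference of 0.22 (SE 0.07), but limma's adjusted p was 0.371. Dnah8 and Dnah17 thus had means on opposite sides.

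Inner arm heavy chains had 6 of 10 means lower in H+H+Cd testes and a median log2 difference of -0.08, beside 0.00 over all genes. Dnah7a had 14.0, 13.5 and 14.7 FPKM in H+H+Cd testes and 16.9, 16.8 and 16.9 FPKM in H+Cd testes. The groups did not overlap and the log2 difference was -0.25 (SE 0.06, limma adjusted p = 0.358). Dnah7b and Dnah7c, like-named relatives on the same chromosome with which it may share reads, had log2 differences of -0.11 and -0.14 and overlapped. The split of reads among the 3 is therefore uncertain. Dnah12, the most abundant chain of this class over all 6 libraries (Dnah14 was above it in H+H+Cd testes, at 23.7 FPKM beside 23.5 FPKM on average), had 23.1, 22.6 and 24.9 FPKM against 28.1, 27.6 and 27.0 FPKM, again without overlap (log2 difference -0.22, SE 0.06, limma adjusted p = 0.358). Dnah10, which in other species pairs with the Dnah2 product in a double-headed inner arm dynein, lay on the other side, at 7.52, 7.11 and 6.89 FPKM in H+H+Cd testes and 6.64, 5.45 and 5.47 FPKM in H+Cd testes (log2 difference 0.26, SE 0.10, limma adjusted p = 0.399). Dnah2 itself differed by 0.06 (95% CI -0.12 to 0.25). Dnah14 did not overlap either, with means of 23.7 FPKM in H+H+Cd and 25.9 FPKM in H+Cd testes. None of the 10 passed the adjusted test. Dnah1, Dnah3 and Dnah6 completed the class at means of 13.8, 18.1 and 14.6 FPKM in H+H+Cd testes and 12.9, 16.8 and 15.1 FPKM in H+Cd testes, and all 3 overlapped.

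Intermediate and light chains hold the heavy chains to the doublet and tune them. All 5 that were chosen by symbol had higher means in H+H+Cd testes, with a median log2 difference of 0.23. Weighted by transcript length, however, only 4 of 5 did, since Dnal1 turned. Dnaic1, an outer arm intermediate chain, had 62.4, 62.4 and 58.9 FPKM in H+H+Cd testes against 57.0, 53.7 and 55.7 FPKM in H+Cd testes, without overlap. Its log2 difference was 0.14 (SE 0.06, limma adjusted p = 0.412). Dnali1, an inner arm chain and the most abundant of the class, had 72.8, 78.4 and 60.4 FPKM against 60.0, 60.4 and 66.0 FPKM, and these overlapped. Dnal4 and Dnaic2 overlapped as well, with log2 differences of 0.25 and 0.23. Nme8, Wdr63 and Wdr78, intermediate chain genes under other symbols, fell outside the set and did not share 1 direction. Nme8 had 32.4, 27.4 and 34.5 FPKM in H+H+Cd testes against 36.1, 46.3 and 81.0 FPKM in H+Cd testes, without overlap (log2 difference -0.70, limma adjusted p = 0.418). Wdr63 and Wdr78 had log2 differences of 0.04 and -0.18.

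Dnal1 encodes an outer arm light chain that binds the motor domain of a heavy chain, and it had the smallest p of any member. The gene read 27.2, 23.6 and 22.7 FPKM in H+H+Cd testes and 11.5, 11.0 and 11.0 FPKM in H+Cd testes, 24.5 ± 2.35 against 11.2 ± 0.31 FPKM (SD, n = 3 each). All 3 H+H+Cd values lay well above all 3 H+Cd values. The log2 difference was 1.06 (95% CI 0.86 to 1.27), and limma's adjusted p of 0.0506 missed the threshold. It passed with a filter at 1 FPKM (0.0445), with median-ratio rescaling (0.0435) or with genes summed by symbol (0.0498). The other settings did not pass, among them a replicate block (limma adjusted p = 0.584), limma without trend (0.0671) and the adjusted F-test (0.128). Without any 1 library limma's adjusted p was 0.0752 to 0.207.

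The gene total hid opposite changes of its transcripts. Dnal1-201 (chr12:84114371-84138457, plus strand, mm10) rose to 25.2, 21.9 and 20.0 FPKM in H+H+Cd testes, against 4.20, 4.11 and 3.91 FPKM in H+Cd testes (log2 difference 2.20, 95% CI 1.92 to 2.48, limma adjusted p = 0.00975). Dnal1-202 (chr12:84114366-84143517) fell to 1.24, 1.03 and 1.04 FPKM, against 6.12, 5.80 and 5.40 FPKM (log2 difference -1.69, 95% CI -1.99 to -1.39, limma adjusted p = 0.0162). The groups stood far apart on both transcripts, and in opposite directions. Dnal1-203 and Dnal1-204 stayed at or below 1.25 FPKM in each library. Dnal1-201 therefore held 93.0%, 92.8% and 87.9% of the gene's FPKM in H+H+Cd testes and 36.4%, 37.5% and 35.5% in H+Cd testes, or 91.2% ± 2.89 against 36.5% ± 1.01 (SD, n = 3 each). The exact permutation test gave p = 0.1, the smallest that 3 against 3 samples allow. Without H+H+Cd replicate 2 or H+Cd replicate 2 the adjusted p of Dnal1-201 became 0.0503 or 0.0559. That of Dnal1-202 was 0.0574 to 0.0852 without any 1 library other than H+Cd replicate 1, without which it was 0.0449.

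Both transcripts begin within a few bases of each other and share 5 of their 8 exons exactly, and they differ at their last exon and at exon 2. In Dnal1-202 the last exon runs to 84143517, which is 5060 bases beyond its end at 84138457 in Dnal1-201, and all of that is 3′ untranslated. Dnal1-201 is 790 bases long with 63 bases of 3′ untranslated region, and Dnal1-202 is 5727 bases long with 5123. Exon 2 of Dnal1-201 starts 128 bases earlier, at 84121155 in place of 84121283, and the annotated reading frame then opens later, with 151 codons against 190 codons. The coding bases of Dnal1-202 up to the end of exon 3 are shown because they hold both starts, each written in capitals, with the later ATG 39 codons after the first and in the same frame. The earlier is the annotated start of Dnal1-202 and the later that of Dnal1-201 (chr12:84114397-84124584, plus strand, mm10, introns removed).
Dnal1-202: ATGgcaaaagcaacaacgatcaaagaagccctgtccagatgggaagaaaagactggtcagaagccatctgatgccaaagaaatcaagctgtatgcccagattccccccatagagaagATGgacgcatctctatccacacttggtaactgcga

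**Figure D2:**
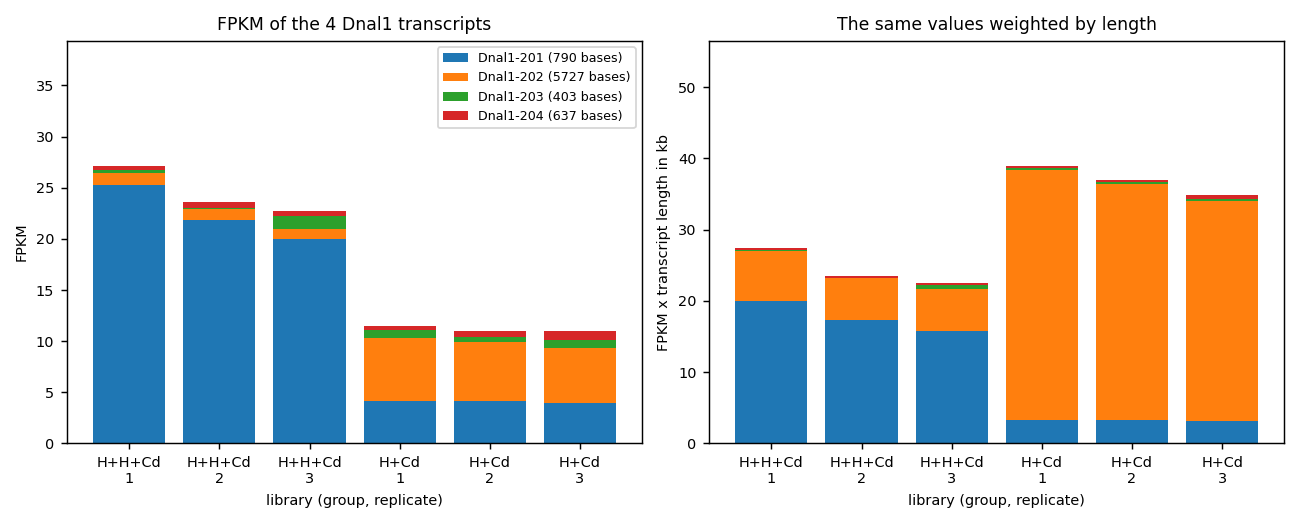
The 4 listed Dnal1 transcripts stacked in each library, in FPKM (left) and in FPKM times transcript length in kb (right), with the 3 H+H+Cd libraries left of the 3 H+Cd libraries. Totals are higher in H+H+Cd libraries on the left (22.7 to 27.2 against 11.0 to 11.5) and lower on the right (22.5 to 27.4 against 34.9 to 39.0).

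Because the short and the long transcript differ this much in length, the direction of the gene total depended on the scale. Multiplied by transcript length in kb, which weighs each transcript by its fragments, Dnal1 had 27.4, 23.6 and 22.5 in H+H+Cd testes against 39.0, 37.0 and 34.9 in H+Cd testes. The log2 difference was then -0.58 (95% CI -0.81 to -0.34, limma adjusted p = 0.307), on the opposite side of 0. Dnal1-201 held 72.1% of this length-weighted total in H+H+Cd testes and 8.71% in H+Cd testes, so the shift between transcripts kept its direction. Only 1 member, Dnal1, and 1.39% of all genes moved by more than 0.5 between both scales. The sign of 5 members turned with the scale (Cfap206, Cfap46, Cfap61, Dnal1 and Rsph6a), beside 4.74% of all genes.

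Assembly factors named Dnaaf load the chaperones that fold dynein arms. Dnaaf1, the most abundant, had 205, 214 and 165 FPKM in H+H+Cd testes and 168, 192 and 201 FPKM in H+Cd testes, with overlap. Dnaaf2, the kintoun homologue, had 22.6, 21.8 and 13.6 FPKM against 23.5, 23.4 and 23.5 FPKM. All H+H+Cd values were lower, but 1 mouse, replicate 3, carried most of the gap (log2 difference -0.30, 95% CI -0.75 to 0.15). Dnaaf3 and Dnaaf5 were level, at means of 25.8 and 8.70 FPKM in H+H+Cd testes and 27.0 and 8.84 FPKM in H+Cd testes. Of a wider list of 22 assembly genes, 19 were tested, none passed, 9 had higher means in H+H+Cd testes and 10 lower. In 4 of the 19 the groups did not overlap, all lower in H+H+Cd testes, beside 11.0% of all genes lower and 8.34% higher, and 2 of these had an unadjusted limma p below 0.05. Daw1, needed for delivery of outer arms to the axoneme, had 17.0, 15.1 and 15.8 FPKM against 17.5, 21.5 and 23.3 FPKM (log2 difference -0.35, limma adjusted p = 0.390). Pih1d3, a co-chaperone of dynein assembly, differed by -0.27 (limma adjusted p = 0.393), and Hsp90aa1, the most abundant of the list, by 0.19 with overlapping groups.

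Radial spokes reach from the doublets to the central pair. In 6 of 7 spoke genes the mean was higher in H+H+Cd testes, with a median log2 difference of 0.07 and none past the adjusted threshold. Rsph1 differed by 0.14 (95% CI -0.30 to 0.58). Rsph3a, a stalk protein, had 167, 163 and 154 FPKM in H+H+Cd testes against 150, 152 and 150 FPKM in H+Cd testes, without overlap (log2 difference 0.09, SE 0.05). Its copy Rsph3b, with which reads may be shared, overlapped, at 172 ± 9.68 against 164 ± 8.43 FPKM (SD, n = 3 each). Rsph9, a head protein, had the single lower mean, at 50.4 ± 1.35 against 54.3 ± 4.83 FPKM (SD, n = 3 each). Rsph6a and Rsph10b had log2 differences of 0.05 and 0.02, and Rsph14 was the lowest spoke gene, at 10.0 ± 0.66 against 9.57 ± 1.67 FPKM.

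The regulatory complex and the ruler give the axoneme its repeat, the ruler by placing spokes and inner arms at regular steps. Ccdc39, a ruler subunit, was level, with 125, 122 and 133 FPKM in H+H+Cd testes and 126, 124 and 119 FPKM in H+Cd testes (log2 difference 0.04, 95% CI -0.09 to 0.18). Drc3 had 38.7, 41.4 and 40.2 FPKM against 42.7, 42.9 and 46.7 FPKM, without overlap (log2 difference -0.13, SE 0.06). Drc1, a core subunit of the complex, had 45.4, 46.9 and 34.0 FPKM against 40.3, 42.2 and 43.6 FPKM. Drc7 and Gas8 showed the same layout, with H+H+Cd replicate 3 lowest of the 6 libraries and the other H+H+Cd mice among the highest (Drc7 29.9, 32.5 and 22.1 against 26.0, 27.6 and 30.4 FPKM, Gas8 22.7, 23.1 and 13.5 against 16.1, 17.0 and 22.1 FPKM). Ccdc40, the partner of Ccdc39, had 18.5, 24.5 and 13.9 FPKM against 16.7, 18.1 and 20.0 FPKM, and the gene total overlapped (log2 difference 0.02, 95% CI -0.45 to 0.49).

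Inside that level total, 1 Ccdc40 transcript was seen in 1 group alone. Ccdc40-201 (chr11:119228572-119265212, plus strand, mm10) read 3.56, 2.32 and 3.11 FPKM in H+H+Cd testes and was listed at 0 in all 3 H+Cd libraries (limma adjusted p = 0.0295). No fold is given against 0. Ccdc40-202 (chr11:119229129-119262900) had 15.0, 22.1 and 10.8 FPKM in H+H+Cd testes against 16.7, 18.1 and 20.0 FPKM in H+Cd testes, and these overlapped. Ccdc40-201 thus held 17.0% ± 6.73 of the gene's FPKM in H+H+Cd testes and 0% in H+Cd testes (SD, n = 3 each, exact permutation p = 0.1, the smallest possible). The call did not outlast the removal of any single library (limma adjusted p 0.0565 to 0.124), nor the ordinary F-test (adjusted p = 0.0773). An exact 0 in such a table can be an estimate that failed, and this was not tested.

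Both Ccdc40 transcripts have 19 exons, of which 16 are identical, and they share most of their sequence. They differ at both ends: Ccdc40-202 starts its reading frame in exon 1 and has a coding exon 2 that Ccdc40-201 lacks, and Ccdc40-201 starts in the exon after it. The 3′ coding ends differ too and are shown, with stop codons in capitals. Ccdc40-202 ends its reading frame of 1137 codons in an exon of its own (chr11:119262763-119262795), whereas Ccdc40-201 continues through its exons 18 (chr11:119263075-119263233) and 19 (chr11:119264266-119264514) to 1192 codons.
Ccdc40-202 coding end: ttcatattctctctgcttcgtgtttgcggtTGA
Ccdc40-201 exon 18: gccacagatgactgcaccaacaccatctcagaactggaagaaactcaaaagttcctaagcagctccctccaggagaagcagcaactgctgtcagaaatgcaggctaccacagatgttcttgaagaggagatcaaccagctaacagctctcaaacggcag
Ccdc40-201 coding end in exon 19: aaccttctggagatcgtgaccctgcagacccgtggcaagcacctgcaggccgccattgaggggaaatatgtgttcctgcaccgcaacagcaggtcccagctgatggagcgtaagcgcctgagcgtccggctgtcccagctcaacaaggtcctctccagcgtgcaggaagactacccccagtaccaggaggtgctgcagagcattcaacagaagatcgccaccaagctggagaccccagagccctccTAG

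**Figure D3:**
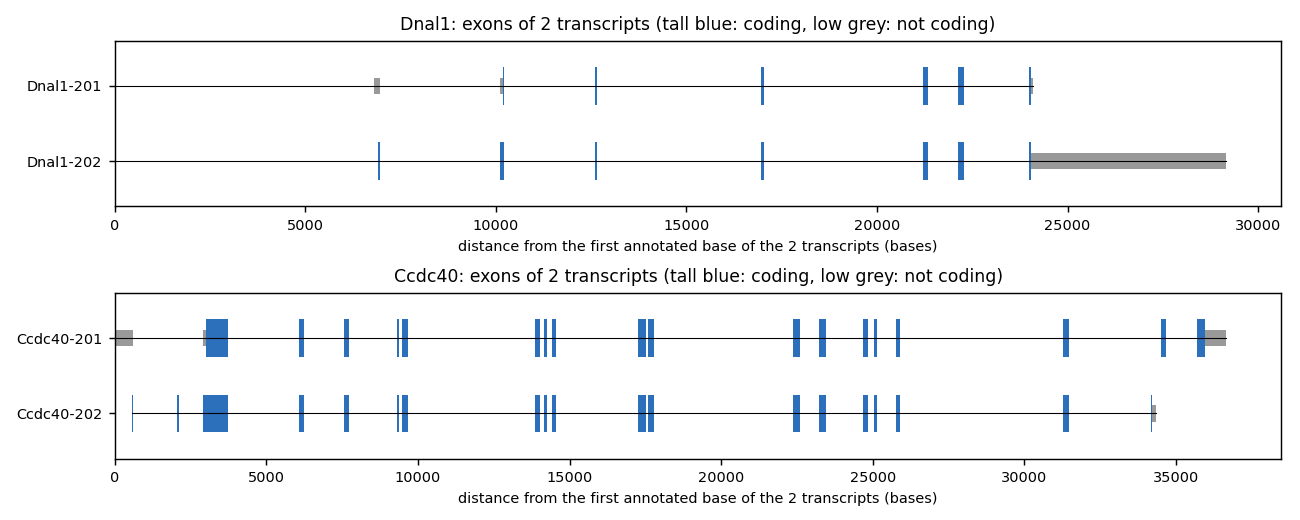
Exons of Dnal1-201 and Dnal1-202 (top) and of Ccdc40-201 and Ccdc40-202 (bottom) against distance in bases from the first annotated base, with coding parts tall and blue and untranslated parts low and grey. The 3′ end of Dnal1-202 extends 5060 bases past that of Dnal1-201, and the Ccdc40 transcripts differ at their first and last exons.

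Tektins line the doublets, and in 3 of 5 tektin genes the groups did not overlap, all 3 higher in H+H+Cd testes, beside 8.34% of all genes that separated in that direction. Tekt1 had 189, 201 and 177 FPKM in H+H+Cd testes against 167, 161 and 161 FPKM in H+Cd testes (log2 difference 0.21, SE 0.06, limma adjusted p = 0.360). Tekt2, the most abundant tektin, had 201, 224 and 189 FPKM against 185, 176 and 180 FPKM (log2 difference 0.18, SE 0.07, limma adjusted p = 0.420), and without H+H+Cd replicate 2 the difference was 0.11. Tekt4 had 117, 126 and 114 FPKM against 110, 99.0 and 98.4 FPKM (log2 difference 0.22, SE 0.07, limma adjusted p = 0.378). In each of these 3 genes every H+H+Cd value exceeded every H+Cd value, and none of the 3 passed the adjusted test. Tekt3 and Tekt5 had lower means in H+H+Cd testes (log2 differences -0.06 and -0.12) and overlapped. Tekt1-203, which held 94.4% of Tekt1 FPKM in H+H+Cd testes and 93.4% in H+Cd testes, had a log2 difference of 0.23, beside 0.21 for the gene.

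RFX transcription factors drive ciliary and spermatid genes through the X-box, whose arms vary in sequence. The letters GTTGCC are 1 form of an arm, and their reverse complement is a form of the other. Only these exact letters were searched, so a promoter without them may still hold an X-box. RefSeq promoters (GRCm38.p6, 250 bases before to 50 bases after a start) were found for 59 of the 70 members, 66 promoters in all. The letters occurred on either strand in 24 of these (36.4%), beside 4111 of 32851 promoters of all genes (12.5%). Tektin promoters held them in 4 of 8 cases, and the Dnal1 and Ccdc40 promoters held none. RefSeq gives 2 promoters for Tekt1, of which 1 holds the letters, 3 for Tekt2, of which 2 do, and 1 for Tekt4, which does. These 2 promoters of Tekt2 overlap and hold the same matches, so 1 stretch was counted as 2 promoters. For each of these 3 tektins, 1 promoter that holds the letters is shown, with the letters in capitals, for Tekt1 (chr11:72361833-72362132, minus strand), Tekt2 (chr4:126325639-126325938, minus strand) and Tekt4 (chr17:25471340-25471639, plus strand). Of the other members without overlap, only some are named singly here. The letters occurred in the promoters of Dnah10 and Cfap100, which were higher in H+H+Cd testes. They also occurred in those of Dnah7a and Cfap300, which were lower. The promoters of Dnah17, which was higher, and of Dnah12, which was lower, held none. A match describes the sequence and is no measure of binding.
Tekt1: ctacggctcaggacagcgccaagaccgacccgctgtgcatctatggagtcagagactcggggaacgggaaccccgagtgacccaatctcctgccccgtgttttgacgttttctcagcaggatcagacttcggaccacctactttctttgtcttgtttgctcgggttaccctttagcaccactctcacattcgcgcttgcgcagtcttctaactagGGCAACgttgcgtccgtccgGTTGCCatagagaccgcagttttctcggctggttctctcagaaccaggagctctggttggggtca
Tekt2: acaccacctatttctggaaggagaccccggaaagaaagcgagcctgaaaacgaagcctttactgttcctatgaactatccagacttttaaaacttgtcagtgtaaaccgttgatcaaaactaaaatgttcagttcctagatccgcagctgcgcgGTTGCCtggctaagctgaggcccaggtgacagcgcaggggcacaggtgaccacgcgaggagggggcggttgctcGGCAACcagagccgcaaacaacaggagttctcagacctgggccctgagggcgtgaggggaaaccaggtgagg
Tekt4: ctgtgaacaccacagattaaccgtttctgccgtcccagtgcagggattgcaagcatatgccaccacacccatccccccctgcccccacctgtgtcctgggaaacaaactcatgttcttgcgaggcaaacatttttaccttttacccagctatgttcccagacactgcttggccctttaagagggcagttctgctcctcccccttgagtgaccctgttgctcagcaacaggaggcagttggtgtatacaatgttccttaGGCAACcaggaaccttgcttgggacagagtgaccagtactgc

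The 30 Cfap genes are a mixed class of central pair, doublet and assembly proteins, and 20 of them had higher means in H+H+Cd testes, with a median log2 difference of 0.06. Cfap206, which sits at the base of a radial spoke, was the most abundant, at 358, 353 and 378 FPKM in H+H+Cd testes and 375, 368 and 361 FPKM in H+Cd testes, with overlap. Cfap300, which in humans is needed for dynein arm assembly, had 32.1, 33.6 and 31.1 FPKM against 36.2, 39.0 and 40.6 FPKM. These did not overlap (log2 difference -0.25, SE 0.07, limma adjusted p = 0.358). Cfap100, tied to an inner arm dynein in green algae, had 30.1, 34.1 and 26.1 FPKM against 22.2, 22.9 and 24.6 FPKM, again without overlap (log2 difference 0.35, SE 0.11, limma adjusted p = 0.371). Cfap74, a central pair protein, had 21.5, 21.6 and 22.1 FPKM against 20.1, 19.3 and 19.6 FPKM (log2 difference 0.14, SE 0.06, limma adjusted p = 0.416). Among central pair proteins, Cfap46, Cfap54 and Cfap221 had log2 differences of 0.04, -0.01 and 0.06. Of the tether proteins Cfap43 and Cfap44, Cfap43 had 76.9, 84.1 and 71.2 FPKM in H+H+Cd testes against 74.7, 63.0 and 61.2 FPKM in H+Cd testes and overlapped by 1 mouse (log2 difference 0.22, 95% CI -0.02 to 0.47), while Cfap44 differed by -0.06. Proteins that line the inside of the doublets were level or variable, with log2 differences of 0.06 for Cfap20, -0.02 for Cfap52, -0.07 for Cfap45, 0.21 for Cfap126, 0.32 for Cfap53 and 0.44 for Cfap161. Cfap161 had 54.4, 86.8 and 75.4 FPKM against 42.6, 42.1 and 78.3 FPKM, so the groups overlapped through H+Cd replicate 3. Cfap36 and Cfap65 did not overlap either, with log2 differences of 0.07 and 0.10. Over the whole set, 18 members (25.7%) had groups that did not overlap, beside 19.4% of all genes. Of them 12 were higher in H+H+Cd testes (17.1%, beside 8.34% of all genes) and 6 lower (8.57%, beside 11.0%).

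**Figure D4:**
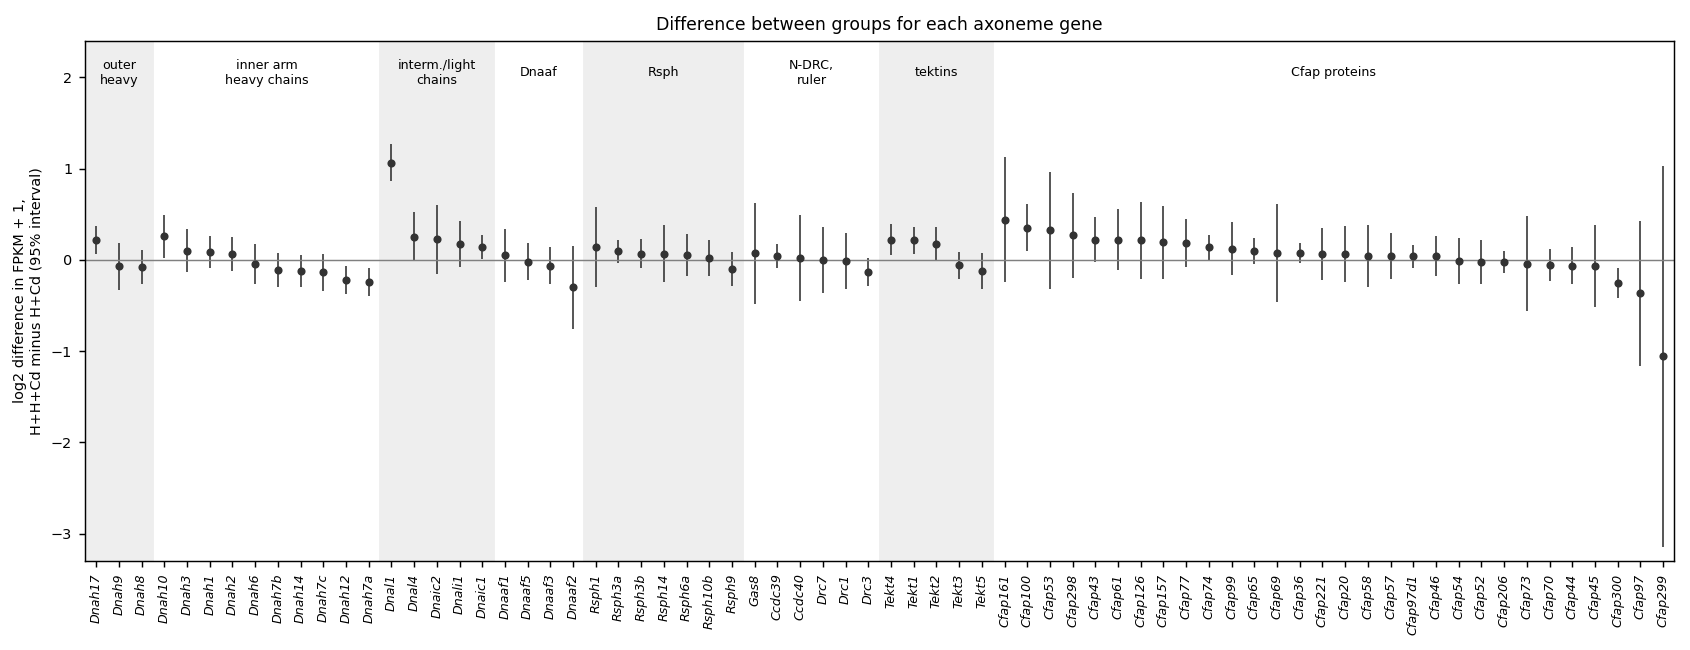
Log2 difference in FPKM + 1 (H+H+Cd minus H+Cd) with limma's 95% interval for each of the 70 genes, grouped by role. Most points lie near 0, Dnal1 stands at 1.06, and Cfap299 has the widest interval (-3.14 to 1.02).

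A few members swung between mice of 1 group by far more than between groups. Cfap299, a gene of spermatogenesis with 1 listed transcript, had 70.8, 14.0 and 15.7 FPKM in H+H+Cd testes and 79.3, 17.5 and 109 FPKM in H+Cd testes. Cfap97 had 143, 86.2 and 83.0 FPKM against 165, 83.5 and 161 FPKM. The same 3 libraries were high for both genes, H+H+Cd replicate 1 and H+Cd replicates 1 and 3. In Cfap97 the extra FPKM lay in Cfap97-206 in H+H+Cd replicate 1 (107 FPKM) and H+Cd replicate 3 (114 FPKM), but in Cfap97-201 in H+Cd replicate 1 (125 FPKM). Both have a coding length of 1623 bases. Cfap126-204 read 76.3, 0 and 3.42 FPKM in H+H+Cd testes and 74.6, 0 and 0 FPKM in H+Cd testes, while Cfap126-207 read 75.1 FPKM in H+H+Cd replicate 3 and 0 in the other 5 libraries. Of the member transcripts, 13 (8.78%) were at least 10-fold apart within a group at 5 FPKM or more, beside 5.84% of all transcripts.

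Beside Dnal1 and Ccdc40, 4 members had a transcript whose share separated the groups and differed most. Rsph6a-202 held 53.1%, 48.2% and 33.0% of Rsph6a FPKM in H+H+Cd testes against 27.6%, 32.4% and 24.5% in H+Cd testes. Rsph6a encodes a spoke head protein of sperm, and this transcript lacks exon 3 of Rsph6a-201 (chr7:19065307-19066071, mm10), which spans 765 bases or 255 codons. Cfap206-201 held 77.3% ± 5.08 against 63.8% ± 7.78 and Cfap69-207 held 35.9% ± 6.44 against 24.7% ± 4.10 (SD, n = 3 each). Cfap61-214, a single exon of 183 bases, held 68.5% ± 7.22 against 54.5% ± 4.62. Weighted by transcript length, the difference in share was 5.3 percentage points for Cfap61-214, beside 14.0 by FPKM, and 5.9 for Cfap69-207, beside 11.2 by FPKM. Exact permutation p was 0.1 for each of the 4, the smallest possible, and they were picked for separating. Cfap46-209 had 2.98, 2.14 and 2.70 FPKM in H+H+Cd testes against 1.65, 1.23 and 1.57 FPKM in H+Cd testes, also without overlap (log2 difference 0.54, limma adjusted p = 0.549). The single listed transcripts of Cfap300, Dnah7a and Dnah12 repeat their gene values.

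**Figure D5:**
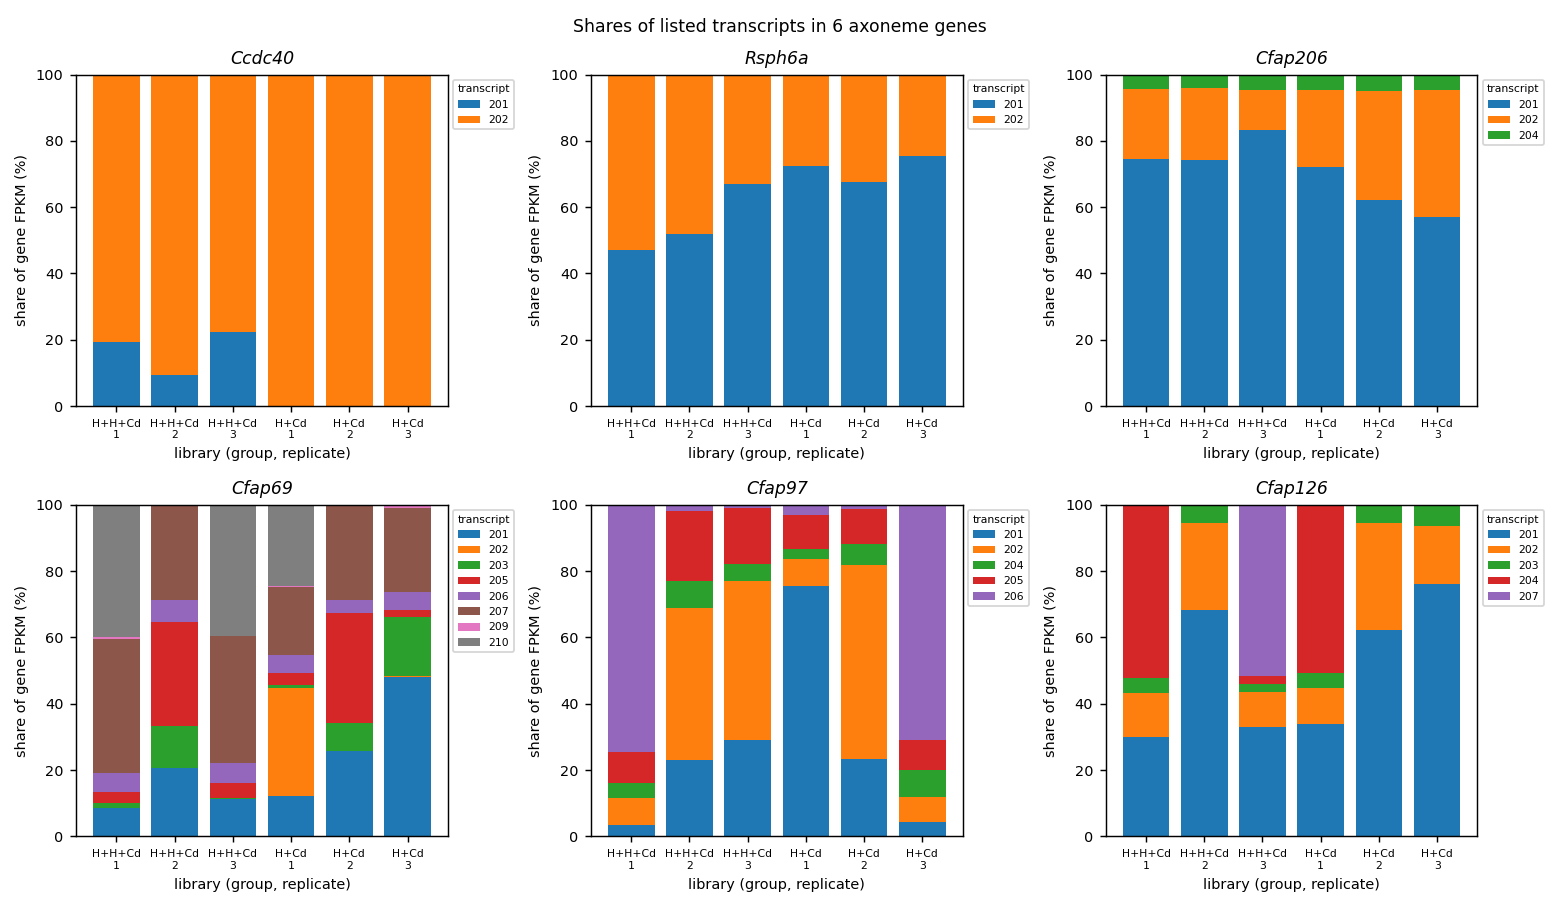
Share of each listed transcript in the gene's FPKM (percent) in the 3 H+H+Cd libraries (left) and the 3 H+Cd libraries (right) for 6 genes. Ccdc40-201 appears in H+H+Cd libraries alone, Rsph6a-202 takes 33.0% to 53.1% there against 24.5% to 32.4%, and the leading transcript of Cfap97 and Cfap126 changes between mice of 1 group.

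Axoneme genes outside the set were read from a list of further spoke, central pair, doublet, docking and regulatory complex genes. The list also held dynein chain genes, some of which serve dyneins outside the axoneme. Of 72 such genes, 65 were tested, none passed, 37 had higher means in H+H+Cd testes and 28 lower, and the median log2 difference was 0.02. Tctex1d1, a dynein light chain relative, had 138, 132 and 142 FPKM in H+H+Cd testes against 154, 169 and 167 FPKM in H+Cd testes (log2 difference -0.25, limma adjusted p = 0.338). Nme7 had 21.2, 21.1 and 27.0 FPKM against 30.4, 35.1 and 29.3 FPKM (log2 difference -0.44, limma adjusted p = 0.358). Ropn1l, a spoke protein and the most abundant of the list, had 709, 685 and 666 FPKM against 741, 841 and 842 FPKM (log2 difference -0.23, limma adjusted p = 0.358). In these 3 the groups did not overlap. In the list as a whole 16 genes did not overlap, 7 higher and 9 lower, beside 8.34% and 11.0% of all genes, and 6 were higher and 5 lower at an unadjusted limma p below 0.05, beside 5.31% and 6.59%.

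Transcription factors of ciliogenesis and spermatids were in the table in 11 of 14 cases and tested in 10, with 7 higher means in H+H+Cd testes and none past the threshold. In 3 of the 10 the groups did not overlap, all higher in H+H+Cd testes, beside 8.34% of all genes. Foxj1, the master regulator of motile cilia, had 18.0, 18.0 and 17.7 FPKM in H+H+Cd testes against 14.7, 11.3 and 11.7 FPKM in H+Cd testes, without overlap (log2 difference 0.49, 95% CI 0.23 to 0.74, limma adjusted p = 0.338). Crem, a switch of spermatid gene expression and the most abundant of the list, had 117, 125 and 150 FPKM against 111, 95.8 and 104 FPKM (log2 difference 0.33, limma adjusted p = 0.390). Rfx2, the RFX factor of spermatids, had 80.5, 80.5 and 89.9 FPKM against 84.7, 70.1 and 65.0 FPKM and overlapped.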

How the data were processed

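Testis RNA of 6 mice was analysed, 3 H+H+Cd and 3 H+Cd libraries, grouped by sample label. The authors sequenced stranded poly(A) libraries and quantified known transcripts with StringTie and Ballgown, according to their methods. The deposited values are FPKM per transcript. The submitters' processing notes name mm10, and the aligner is not given in the sources used here. Depth is unknown, so no counting error was computed.

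Identifiers were matched without version to GENCODE M21 (27018 of 27120, 99.6%), and transcripts summed per gene. Genes and transcripts whose mean exceeded 0.5 FPKM in either group were tested on log2(FPKM + 1) by limma 3.58.1 in R 4.3.3 (variance trend, two-sided, Benjamini-Hochberg over all features). Every adjusted p is limma's unless another test is named. Intervals cover the spread between mice, which came from separate litters per the study's methods. Transcript shares were compared by exact permutation tests (scipy 1.17.1, two-sided). Tables used Python 3.11.15 and pandas 2.3.3.

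Members, lists and tests were chosen with earlier results of these data known. Named were Dnal1, Ccdc40, the most abundant member and that of smallest p in each role, the 12 genes and 8 transcripts of smallest p, the largest transcript share differences without overlap, and from each outside list the most abundant gene and those of smallest p. Other members, the single marker genes (Cldn11 and Crisp1 among them), Rfx2, Nme8, Wdr63 and Wdr78 were named after their values were seen, to complete each role. Alternatives were a pseudocount of 0.1, no filter or a filter at 1 FPKM, 3 rescalings, a replicate block, limma without trend, an adjusted F-test, leaving out each library, and, chosen after seeing the data, length-weighted values and sums by symbol. For the count at the thresholds of the study, the fold was also taken on mean FPKM. The script was tested on simulated data.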

Additional observations from a re-analysis of the deposited data

How the results depend on the processing

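No member gene passed the adjusted threshold, except that 1 (Dnal1) did with a filter at a mean FPKM above 1, with median-ratio rescaling and with sums by symbol. Over all genes, limma called 1, against 0 with no filter, with the replicate block and with the adjusted F-test, 2 with equal library sums, 3 with the filter at 1, median-ratio rescaling, no trend or sums by symbol, 4 with length-weighted values, and 0 to 3 when a library was left out. Of all transcripts 33 were called, 11 to 86 without 1 library and 1 with the replicate block. Of member transcripts 3 were called, 0 to 2 without 1 library and 0 with the replicate block. Members at the thresholds of the study numbered 2, 1 to 7 without 1 library, 1 with the replicate block and 3 with the fold taken on mean FPKM. Dnal1 turned to -0.58 with length-weighted values, because long transcripts then weigh more. Same-numbered mice did not deviate together (correlations -0.163 to -0.002 over genes), and the sample labels state no pairing. Deviations were taken within groups of 3 mice, which constrains these correlations, so they cannot exclude a shared batch. With 3 mice a group, exact tests of shares cannot go below 0.1.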
